A study of Glycine max with 12 samples.

Results

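Roots of the soybean (Glycine max) line labelled OX were set against wild-type roots (WT), both given 50 µM AlCl3. The comparison used 6 of the 12 RNA-seq libraries of the series, chosen by their titles: 3 of OX with aluminium (OX_Al) and 3 of WT with aluminium (WT_Al). The other libraries, 3 of OX and 3 of WT at 0 µM AlCl3 (OX_CK and WT_CK), helped to estimate the spread and showed the same lines without the metal. What OX carries, what drives it, how many independent lines it stands for, the cultivar, the plants' age and the length of the treatment are not stated. It is likewise not stated whether separate plants gave the libraries of each group, so the p-values may describe technical spread only.

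Dissolved aluminium is a toxic ion of acid soils that stops the growth of root tips. Tolerant plants are known to release citrate and malate through membrane transporters, to change the polymers of the cell wall and to store the ion inside the cell, and in Arabidopsis the zinc finger factor STOP1 switches on several genes of this defence. Whether such genes differed between the lines could not be read from the data, since the count table gives identifiers alone and 0 of them were found in the RefSeq gene table used here. Genes are therefore given by identifier, with the chromosome that the identifier carries and with no name or function. The labelled tissue could not be checked against markers of root, leaf, seed or nodule for the same reason.

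The OX_Al libraries held 16373271 to 18010354 counts and the WT_Al libraries 17156527 to 18048712, against 15923413 to 18399566 in the libraries without aluminium. On the first principal component of the 6 aluminium libraries, which took 53.7% of the variance of log2 CPM (counts per 1000000 counts of a library), OX_Al lay between -69.3 and -52.9 and WT_Al between 55.7 and 66.5. The second component took 19.3% and spread the WT_Al libraries, from -67.5 in replicate 3 to 52.4 in replicate 1, while OX_Al stayed between -17.2 and 15.2.

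More genes were higher than lower in OX roots under aluminium. Of 37170 genes tested, 1547 (4.16%) were higher and 711 (1.91%) were lower in OX_Al than in WT_Al, together 6.07%, by edgeR's quasi-likelihood test at a Benjamini-Hochberg adjusted p under 0.05. In whole roots, fewer cells that express a gene and less RNA of it per cell cannot be told apart. The differences were also larger on the higher side, with a median log2 fold change (OX_Al over WT_Al) of 1.45 for the higher genes and -1.09 for the lower ones, against -0.05 over all genes tested. Setting the 29 higher and 3 lower genes that had no count in one group at a bound of 3 counts over that group left both medians as they were. A log2 fold change of 1 or more in size was reached by 1108 higher and 409 lower genes, one of 2 or more by 538 and 142, and one of 4 or more by 156 and 23, or by 153 and 22 with the bounds. At the other end, the smallest called differences had a log2 size of 0.40 in either direction.

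The OX_Al and WT_Al libraries did not overlap for 1546 of the 1547 higher genes and for 708 of the 711 lower genes. Over all tested genes the share without overlap was 13.2% on the higher side and 12.4% on the lower side, so a lack of overlap was far more common than a call. The total of 2258 calls was 1393 without OX_Al replicate 2, 1391 without OX_Al replicate 3 and 1404 without WT_Al replicate 2. The higher genes numbered 1014, 1029 and 1010 in those fits. The lower genes numbered 389, 379 and 362 without OX_Al replicate 1, 2 and 3 and 458 and 394 without WT_Al replicate 1 and 2. Without WT_Al replicate 3, the library at one end of the second component, 1064 genes were higher and 618 lower. Of the 2258 genes, 1118 were called in the same direction in each of the 6 fits that left out 1 aluminium library, 861 of them higher and 257 lower.

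**Figure D1:**
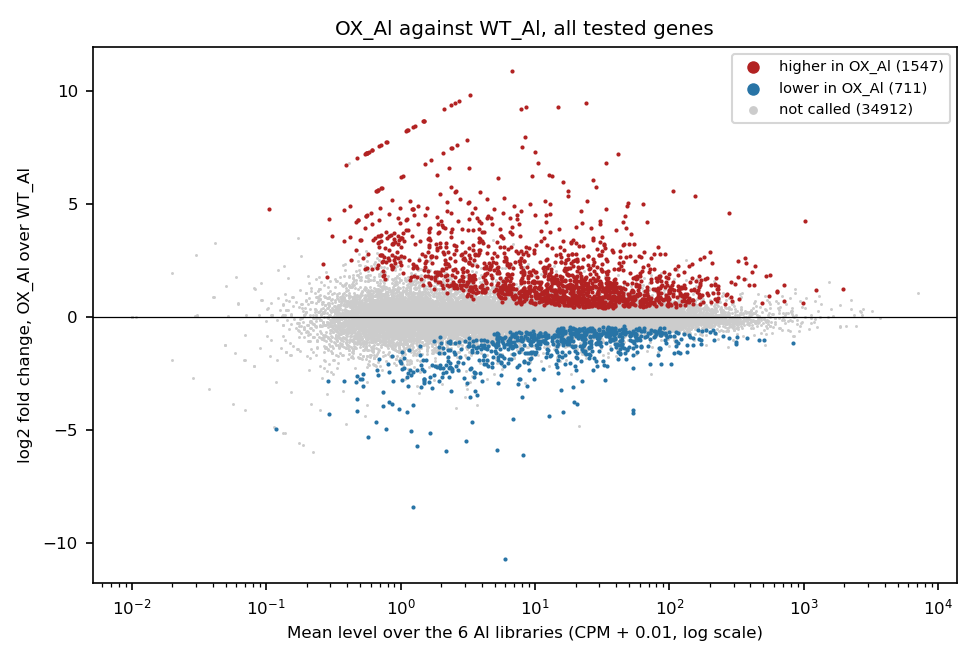
Each point is 1 of the 37170 tested genes, with its mean level over the 6 aluminium libraries on the x axis (CPM + 0.01, log scale) and its log2 fold change of OX_Al over WT_Al on the y axis. Red points are the 1547 genes higher in OX_Al, blue points the 711 lower ones and grey points the genes not called; the red points reach further from 0 than the blue ones at most levels, and the oblique rows at the upper left are genes with no count or a few counts in WT_Al.

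Calls were most frequent among genes with many counts. Where the higher of the group means was at most 1 CPM, 1.26% of the tested genes were called, and where it was above 300 CPM, 14.6% were. The bands between gave 4.29% (above 1 and up to 3 CPM), 5.13% (up to 10 CPM), 6.07% (up to 30 CPM), 8.69% (up to 100 CPM) and 10.7% (up to 300 CPM). The median standard error (SE) of the log2 fold change was 0.59 in the lowest band, 0.16 between 30 and 100 CPM and 0.25 above 300 CPM. Above 300 CPM, 41 genes were higher and 9 lower in OX_Al, so that 82% of the calls were higher, against 68.5% of all calls.

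The genes higher in OX_Al were summed in each library. Their CPM summed to 80093, 88152 and 85086 in the OX_Al libraries, against 36665, 34019.9 and 30873 in the WT_Al libraries. That gap follows from how the genes were chosen, but the libraries without aluminium had no part in the contrast. There the same genes summed to 30964.5, 38231 and 36166 CPM in OX_CK, against 20315, 22362 and 24313.5 CPM in WT_CK. Every OX_CK library was above every WT_CK library, and the OX_CK sums lay near those of WT_Al.

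The genes lower in OX_Al summed to 14207, 15238 and 14270.4 CPM in OX_Al, against 30481, 29716 and 27405 CPM in WT_Al. Without aluminium they summed to 10777, 10847 and 11396 CPM in OX_CK and to 13808, 15017 and 15592 CPM in WT_CK. The lines again did not overlap, but the gap was narrower than under aluminium. No test was made of these sums, whose genes were chosen by calls. The change was spread over many genes: the 10 genes with the largest gain held 16.6% of the summed gain in mean CPM, and the 10 with the largest loss held 17.7% of the summed loss.

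**Figure D2:**
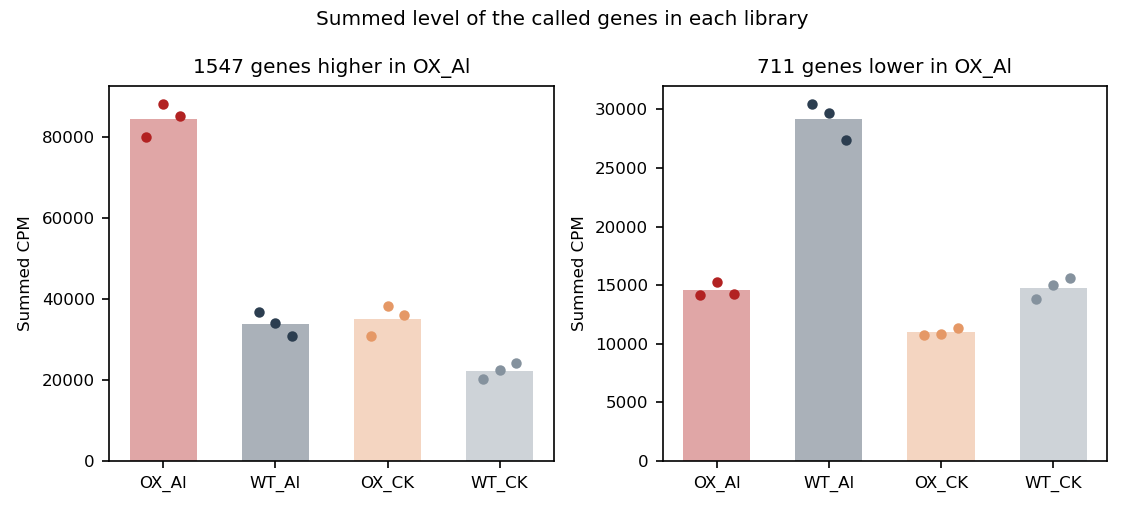
Summed CPM of the 1547 genes higher in OX_Al (left) and of the 711 genes lower in OX_Al (right), by group on the x axis; points are the 3 libraries of a group and bars their mean. The OX_CK points lie above the WT_CK points on the left and below them on the right, by less than the aluminium groups differ.

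Among well-counted genes, 247 reached a mean of 100 CPM in OX_Al or WT_Al, were called and did not overlap between these groups, 189 of them higher and 58 lower in OX_Al. The largest differences of these stood well apart from the rest on the lower side, where log2 fold changes of -4.22 and -4.10 were followed by -2.07. On the higher side the first values were 5.60, 5.35 and 4.996, and 34 genes of the 189 reached 2 or more. The genes with the 2 largest rises and the 2 largest falls are given in full. Their choice used the values with aluminium, which also enter the test of whether the line effects differ with and without aluminium. For these genes that test is therefore no separate support.

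Glyma.10G242300 had 197, 228 and 203 CPM in the OX_Al libraries, against 3.45, 4.28 and 5.15 CPM in the WT_Al libraries. It was 48.8 times as high in OX_Al by the group means of 209 ± 16.7 and 4.29 ± 0.851 CPM (SD, n = 3 each), a log2 fold change of 5.60 ± 0.27 (SE, edgeR adjusted p = 5.66e-07). Without aluminium it was also higher in OX, at 29.5, 42.7 and 24.2 CPM in OX_CK against 5.70, 4.99 and 3.56 CPM in WT_CK (log2 fold change 2.76 ± 0.24, edgeR adjusted p = 7.83e-05). The difference between the lines was larger with the metal than without it, by 2.85 ± 0.33 on the log2 scale (edgeR adjusted p = 0.00183 for the interaction of line and treatment). In WT the response to aluminium was -0.14 ± 0.25 on the log2 scale (edgeR adjusted p = 0.683).

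Glyma.02G256800 had 250.3, 342 and 322 CPM in OX_Al, against 6.90, 7.78 and 7.75 CPM in WT_Al. The 3 WT_Al values were close to each other, and the log2 fold change was 5.35 ± 0.30 (edgeR adjusted p = 1.13e-06). In the roots without aluminium the lines nearly met, with 22.4, 25.7 and 15.3 CPM in OX_CK and 12.8, 12.3 and 6.44 CPM in WT_CK (log2 fold change 1.01 ± 0.26, edgeR adjusted p = 0.0477). That call without aluminium was at the threshold and ended in 11 of the 12 fits that left out 1 library, all but the one without OX_CK replicate 3 (edgeR adjusted p of up to 0.201). The excess in OX was 4.34 ± 0.37 larger on the log2 scale with aluminium (edgeR adjusted p = 0.000199). Its counts were not whole in 4 libraries, so its reads may have been shared out with a like sequence.

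Glyma.16G180700 showed the reverse, a gene that was high in WT roots under aluminium alone. It had 4.78, 6.38 and 5.18 CPM in OX_Al, against 115, 97.7 and 91.5 CPM in WT_Al (log2 fold change -4.22 ± 0.35, edgeR adjusted p = 2.01e-05). Without aluminium it was near 1 CPM in either line, at 0.881, 2.17 and 0.756 CPM in OX_CK and 1.92, 0.555 and 1.08 CPM in WT_CK. Aluminium raised it in both lines, by 2.09 ± 0.38 on the log2 scale in OX and by 6.41 ± 0.40 in WT (edgeR adjusted p = 0.00138 and 3.58e-07), and the difference of the line effect was -4.32 ± 0.55 (edgeR adjusted p = 0.00261).

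Glyma.16G210600 was low in OX with and without the metal. It had 4.91, 5.52 and 7.33 CPM in OX_Al, against 103, 109.7 and 91.4 CPM in WT_Al (log2 fold change -4.10 ± 0.34, edgeR adjusted p = 2.24e-05). The libraries without aluminium gave 1.47, 1.41 and 4.26 CPM in OX_CK, against 52.5, 59.9 and 76.7 CPM in WT_CK (log2 fold change -4.72 ± 0.36, edgeR adjusted p = 4e-05). The difference between these fold changes was 0.62 ± 0.46 (edgeR adjusted p = 0.654). This value rested on the OX_CK libraries, being 0.37, 0.35 and 1.35 without OX_CK replicate 1, 2 and 3 (edgeR adjusted p = 0.821, 0.927 and 0.0544). Its counts were whole in all 12 libraries.

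A further 7 genes were singled out after their values were seen. Values with aluminium guided each choice and enter the test of the difference of the line effects. That test is no separate support for these genes either. Glyma.11G212300 had the lowest p of the comparison. It stood at 102, 135 and 135 CPM in OX_Al, against 4.41, 4.39 and 2.83 CPM in WT_Al, and at 3.23, 2.76 and 2.81 CPM in OX_CK, against 3.84, 4.61 and 3.71 CPM in WT_CK. Only the OX_Al libraries were high, and the other 9 lay between 2.76 and 4.61 CPM. The log2 fold change of OX over WT was 4.996 ± 0.20 with aluminium (edgeR adjusted p = 4.08e-07) and -0.47 ± 0.20 without it (edgeR adjusted p = 0.26), and the lines' responses to aluminium differed by 5.46 ± 0.27 (edgeR adjusted p = 5.36e-06). In WT the response was -0.07 ± 0.19 (edgeR adjusted p = 0.812).

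Glyma.20G176500 had the largest gain in mean CPM of all called genes. Its level was 1624, 2052 and 2138 CPM in OX_Al, against 114, 99.7 and 95.4 CPM in WT_Al, so that it took 0.18% of all counts in OX_Al and 0.00979% in WT_Al. It was high in OX without aluminium too, with 543, 733 and 1283 CPM in OX_CK against 23.6, 26.1 and 36 CPM in WT_CK. The log2 fold change was 4.23 ± 0.33 with aluminium (edgeR adjusted p = 1.36e-05), and it differed from that without aluminium by -0.67 ± 0.41 (edgeR adjusted p = 0.575), or by -0.25 without OX_CK replicate 3. Its counts were not whole in 11 libraries.

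Glyma.15G205900 had the largest loss in mean CPM. It stood at 435, 608 and 535 CPM in OX_Al, against 1186, 1162 and 1082 CPM in WT_Al (log2 fold change -1.12 ± 0.20, edgeR adjusted p = 0.00558). Aluminium raised it strongly in both lines, by 3.37 ± 0.22 on the log2 scale in OX and by 3.94 ± 0.23 in WT (edgeR adjusted p = 7.25e-07 and 1.88e-07). Without aluminium the lines overlapped, at 43.9, 51.1 and 57.3 CPM in OX_CK and 84.1, 83.7 and 55.8 CPM in WT_CK (log2 fold change -0.55 ± 0.20, edgeR adjusted p = 0.179, or -0.72 and 0.0475 without WT_CK replicate 3), and the line effects with and without aluminium differed by -0.57 ± 0.29 (edgeR adjusted p = 0.467).

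Glyma.15G264300, which took the largest share of the OX_Al counts (0.888%, against 0.427% in WT_Al), was not called. Its 8439.8, 10018 and 10190.4 CPM in OX_Al all lay above the 5355, 4501 and 3675 CPM in WT_Al, but the log2 fold change of 1.08 ± 0.39 had an edgeR adjusted p of 0.153. The DESeq2 Wald test and edgeR on the 6 aluminium libraries alone did call it (adjusted p = 0.0362 and 0.00628). Without aluminium the lines were far apart, with 2533, 5409.5 and 4795 CPM in OX_CK against 58.8, 95.5 and 173 CPM in WT_CK. The excess in OX was thus 4.20 lower on the log2 scale with aluminium (difference -4.20 ± 0.56, edgeR adjusted p = 0.00352). The counts of Glyma.15G264300 were not whole in 11 libraries.

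**Figure D3:**
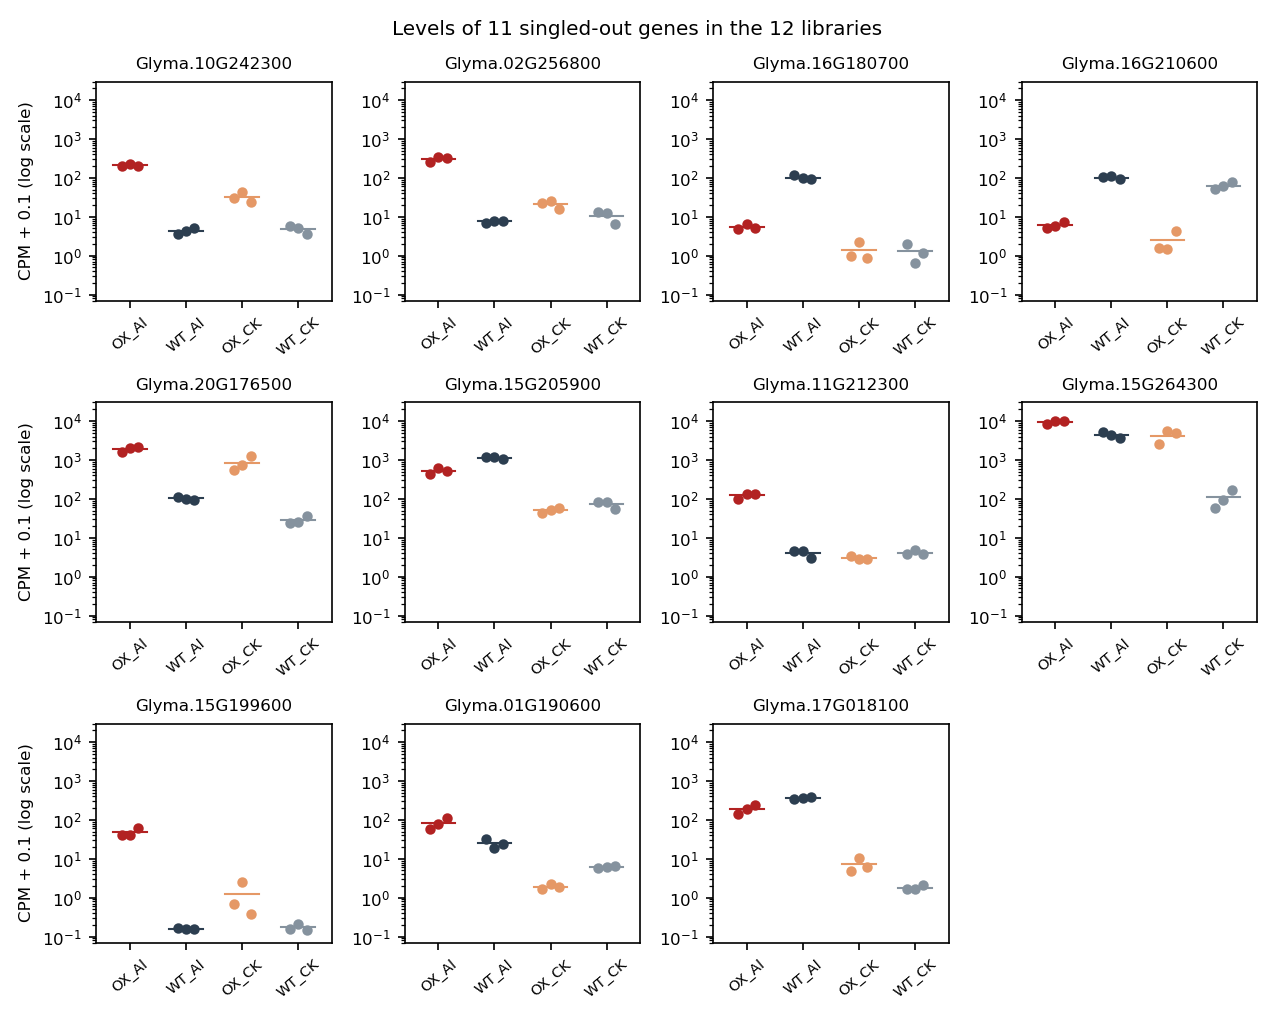
Level of 11 genes in each of the 12 libraries (CPM + 0.1, log scale); points are libraries, lines group means, and the groups run from OX_Al and WT_Al to OX_CK and WT_CK. The first 4 panels are the genes with the largest rises and falls at 100 CPM or more, and in the panel of Glyma.11G212300 only the OX_Al points stand above about 5 CPM.

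The CK libraries gave a second look at the genes that differed under aluminium, since no library of OX_CK or WT_CK entered that contrast, although the groups shared 1 estimate of the spread. Of the 1547 genes higher in OX_Al, 1165 (75.3%) had a positive log2 fold change of OX_CK over WT_CK, against 49.4% of all tested genes. Of the 711 genes lower in OX_Al, 519 (73%) had a negative one, against 50.4% of all tested genes. The sign was thus the same for about 3 of 4 genes. The median log2 fold change without aluminium was 0.36 for the higher genes and -0.24 for the lower ones, beside 1.45 and -1.09 with aluminium. Both medians without aluminium were the same with genes of no count at the bound. That version left out 102 higher and 21 lower genes with at most 3 counts in each of OX_CK and WT_CK. Such genes are kept in the shares given here. Genes chosen by a call tend to be smaller in a contrast that did not choose them, and the reverse choice showed this too. The 1090 genes called higher in OX_CK had a median of 0.58 with aluminium beside 1.91 without it, and the 556 called lower a median of -0.36 beside -1.17. Their sign was the same with aluminium for 877 (80.5%) and 434 (78.1%), against 43.4% and 56.6% of all tested genes. These medians therefore do not show that the lines differed less in one treatment. Of the genes called with aluminium, 790 higher ones (51.1%) and 433 lower ones (60.9%) had a log2 fold change under 0.5 in size without it.

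A call in the same direction without aluminium was made for 322 of the higher genes (20.8%), where 2.93% of all tested genes were higher in OX_CK. It was made for 101 of the lower genes (14.2%), where 1.5% of all tested genes were lower in OX_CK. Without aluminium 1646 genes (4.43%) differed between the lines in all. The count of 423 shared calls was 278 without OX_Al replicate 2 and 253 without WT_CK replicate 2. The shares by size, whose difference was not tested, were as follows: among the higher genes whose log2 fold change reached 2, 129 of 538 (24%) were also called without aluminium, and of those under 1, 48 of 439 (10.9%). Among the lower genes these shares were 31 of 142 (21.8%) and 35 of 302 (11.6%). Across the 2258 called genes, which are not independent replicates and share the TMM scaling, the log2 fold changes with and without aluminium correlated at 0.513 (Pearson) and 0.501 (Spearman), against 0.361 and 0.22 over all tested genes.

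Among the well-counted genes the higher and lower sides looked unlike. Of the 189 higher genes with at least 100 CPM, 85 (45%) were also called higher without aluminium, and their median log2 fold change there was 0.70, beside 1.23 with aluminium. Of the 58 lower genes at that level, 5 (8.62%) were also called lower, and their median without aluminium was -0.02, beside -0.95 with it. Among all tested genes, 2.93% were called higher and 1.5% lower in OX_CK. The shares for all genes of at least 100 CPM are not given here. Whether the sides differed was not tested. The call under aluminium was kept in all 6 fits without 1 aluminium library for 112 of the 189 genes and 29 of the 58.

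**Figure D4:**
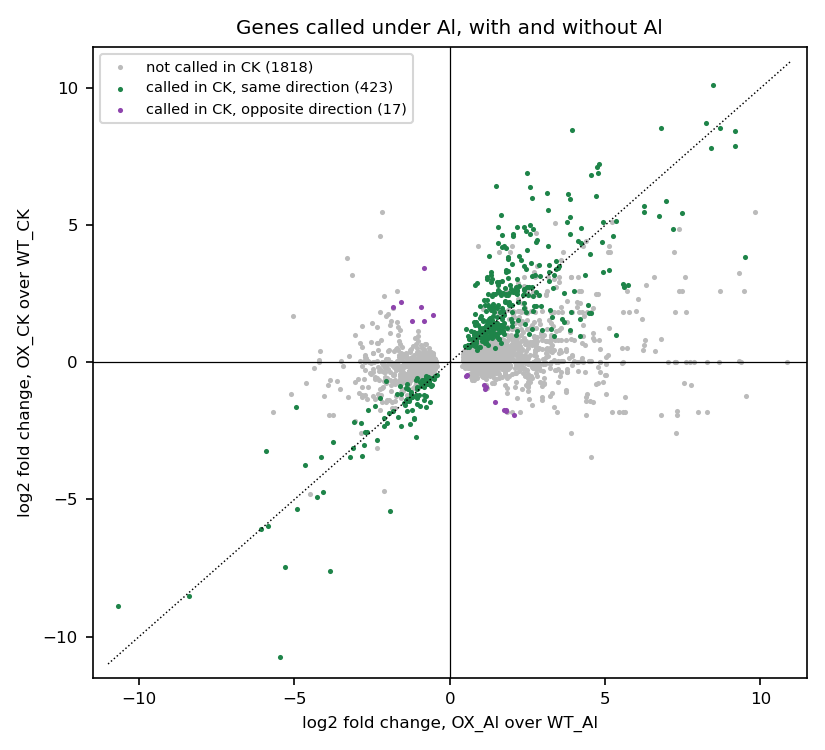
The 2258 genes called under aluminium, with the log2 fold change of OX_Al over WT_Al on the x axis and that of OX_CK over WT_CK on the y axis; the dotted line marks equal values. Green points (423) were called in the same direction without aluminium, purple points (17) in the opposite one, and the grey points, not called there, gather along the horizontal line at 0.

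For 17 genes the lines changed places. Of the 1547 genes higher in OX with aluminium, 10 were called lower without it, and 7 of the 711 lower genes the other way round. Among all tested genes, 1.5% were called lower and 2.93% higher in OX_CK, so opposite calls were rarer here than among all genes. By level, the leading gene of the first kind was Glyma.01G190600, with 59.1, 77.5 and 109 CPM in OX_Al against 31.2, 18.4 and 24.3 CPM in WT_Al, and with 1.59, 2.12 and 1.73 CPM in OX_CK against 5.76, 6.10 and 6.44 CPM in WT_CK. The groups did not overlap in either treatment (log2 fold changes 1.73 ± 0.23 and -1.75 ± 0.27, edgeR adjusted p = 0.000658 and 0.00355), and aluminium raised the gene by 5.49 ± 0.28 in OX and by 2.01 ± 0.24 in WT (edgeR adjusted p = 1.46e-07 and 4.78e-05). The difference of the line effects was 3.48 ± 0.35 (edgeR adjusted p = 0.000786). The gene was picked for opposite calls in the same libraries, so this call is no separate support. Its counts were not whole in 5 libraries.

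Of the second kind, Glyma.17G018100 had the highest level, with 143, 187 and 245 CPM in OX_Al against 342, 364 and 383 CPM in WT_Al, and with 4.87, 10.1 and 6.10 CPM in OX_CK against 1.59, 1.55 and 2.01 CPM in WT_CK. Its log2 fold change was -0.92 ± 0.25 with aluminium and 2.03 ± 0.30 without (edgeR adjusted p = 0.0485 and 0.00253), and these differed by -2.95 ± 0.39 (edgeR adjusted p = 0.00311). The call with aluminium was close to the threshold. It ended without OX_Al replicate 1 or 2, any WT_Al library, OX_CK replicate 3, or WT_CK replicate 1 or 2 (edgeR adjusted p of up to 0.197). The call of the difference held in all 12 such fits, but it too is no separate support, as the gene was picked for opposite calls. Over all genes the test of the difference called 605 (1.63%), with 272 to 751 when 1 library was left out. The count fell to 323, 272 and 318 without OX_Al replicate 1, 2 and 3, to 335 and 273 without WT_Al replicate 1 and 2, to 389 without OX_CK replicate 2 and to 292 without WT_CK replicate 2.

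Some genes were all but silent in one line. Of the genes higher in OX_Al, 73 had at most 3 counts over the WT_Al libraries, and 29 of these had none. Their median level in OX_Al was 1.52 CPM, 61 had at least 1 CPM and 12 had at least 5 CPM. In WT_CK, 60 of the 73 were also at 3 counts or fewer. Over the OX_CK libraries 33 had more than 3 counts, and 14 were called higher there, where 2.93% of all tested genes were. The highest in OX_Al was Glyma.15G199600, with 39.7, 39.96 and 63.2 CPM in OX_Al against 0.0639, 0.0586 and 0.0554 CPM in WT_Al, which is 2276 counts against 3. Scaled for library size, the ratio of these was 815, with a 95% interval of 279 to 3955 that covers counting error only. No test is given for this contrast, since the gene was picked for its near absence from WT_Al. It had 0.587, 2.49 and 0.27 CPM in OX_CK and 0.0548, 0.111 and 0.0516 CPM in WT_CK (log2 fold change 3.84 ± 0.91, edgeR adjusted p = 0.0342). That call ended without OX_CK replicate 2 (log2 fold change 2.46), WT_Al replicate 2 or any WT_CK library (edgeR adjusted p of 0.0526 to 0.104). The line effects with and without aluminium differed by 5.65 ± 2.06 on the log2 scale, which was not called (edgeR adjusted p = 0.263). It was called without OX_CK replicate 2 (edgeR adjusted p = 0.019) and with the DESeq2 Wald test (adjusted p = 0.002). That difference contains the OX_Al and WT_Al values by which the gene was picked, so no conclusion is drawn from these calls.

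The reverse was rarer. Of the genes lower in OX_Al, 13 had at most 3 counts over the OX_Al libraries, 3 of them none, and their levels in WT_Al had a median of 1.24 CPM and reached 11.9 CPM. Without aluminium 11 of the 13 had more than 3 counts in WT_CK, and 10 were called lower in OX_CK, where 1.5% of all tested genes were. Over all tested genes, 107 had at most 3 counts in WT_Al and 70 in OX_Al. A gene could pass the filter through one group alone, so these counts are a description only.

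Genes from every chromosome differed between the lines under aluminium. By the chromosome in the identifier, the share of tested genes that were higher in OX_Al ran from 3.1% on chromosome 17 to 5.04% on chromosome 1, and the share that were lower from 1.45% on chromosome 20 to 3.11% on chromosome 16. Chromosome 16 had 58 higher and 42 lower genes of 1352 tested, 7.4% in all. Of these 100 genes, 42 were called in the same direction without aluminium, while the share was 18.7% for all called genes and at most 24.4% on any other chromosome. Among the 641 tested loci with an MSTRG identifier, which stand outside the Glyma set, 50 (7.8%) were higher and 11 (1.72%) lower in OX_Al, and 17 of these 61 were called in the same direction without aluminium.

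**Figure D5:**
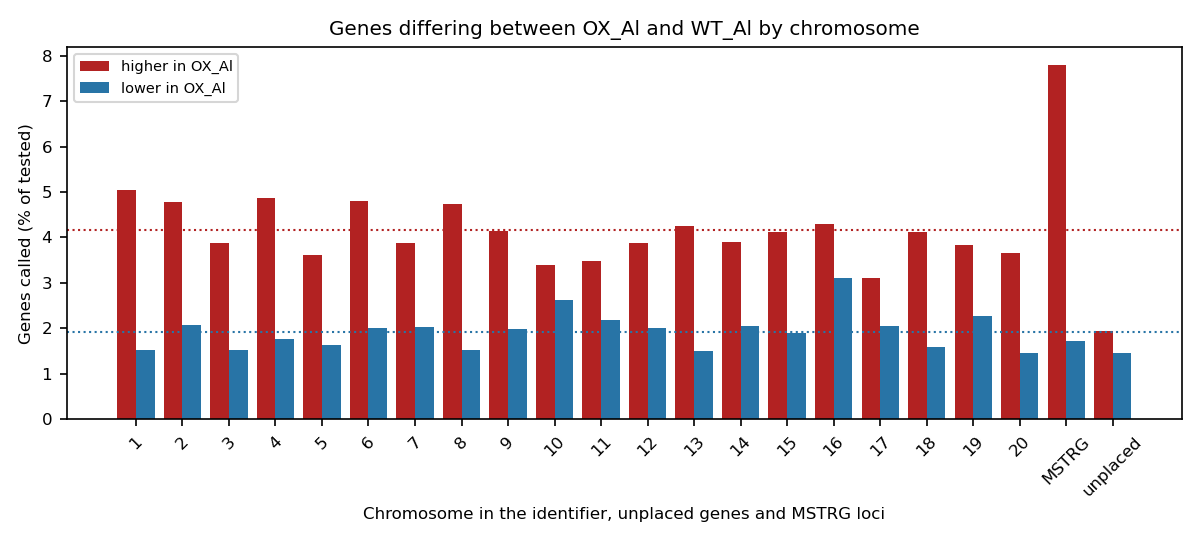
Share of tested genes that were higher (red) or lower (blue) in OX_Al than in WT_Al, in percent, by the chromosome in the identifier, with MSTRG loci and unplaced genes at the right; dotted lines mark 4.16% and 1.91%, the shares over all genes. Chromosome 16 has the highest blue bar, at 3.11%, and the MSTRG loci the highest red one, at 7.8%.

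In windows of 50 tested genes in the order of their identifiers, chromosome 16 held the highest count of calls, 15, first reached from Glyma.16G168300 to Glyma.16G177900 with 10 higher and 5 lower genes. The highest count on another chromosome was 13, on chromosome 2. Runs of 3 or more neighbouring tested genes called in the same direction numbered 19 on the higher side, 14 of 3 genes, 4 of 4 genes and 1 of 5 genes, and 3 on the lower side. The run of 5 went from Glyma.16G176600 to Glyma.16G177000. Its genes averaged 2.46 to 12.5 CPM in OX_Al, against 0 to 0.978 CPM in WT_Al. Each was called higher in OX without aluminium too, at 0.532 to 2.56 CPM in OX_CK against 0 to 0.373 CPM in WT_CK. Counts that were not whole occurred in 3 of the 5, whose reads may have been divided among near copies, so that the run need not stand for 5 separate signals.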

How the data were processed

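The values, estimated counts for each gene in 12 libraries of roots, were deposited in 1 table, unscaled between libraries. HTSeq 0.6.0, HISAT2 2.1.0, Bowtie2 2.2.3, TopHat2 and CASAVA are the tools named, per the submitters' processing notes, which state neither their roles nor their sequence. The build, the strand setting and the step that gave 13.2% of values decimals (tolerance 1e-06) were not given in the sources used here. Overlapping or antisense genes therefore cannot be separated, and the 43.4% of tested genes with such a value may share reads with copies. The 8 rows of stray text without values were left out of 56877 rows with values (56044 Glyma and 833 MSTRG identifiers).

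The deposited estimated counts were rounded to whole numbers by choice. Genes were filtered with filterByExpr (minimum count 10, minimum total 15) and scaled by TMM. edgeR 4.0.16 (R 4.3.3) fitted a mean per group to all 12 libraries with robust quasi-likelihood F-tests (two-sided), adjusted over 37170 genes. CPM use TMM-scaled library sizes, from counts not corrected for transcript length, and the SE is approximate, the absolute log2 fold change divided by the square root of F. Counting intervals are exact and cover counting error only. In simulated libraries for OX_Al against WT_Al, 200 of 37170 genes were changed, all with a mean above 1 CPM. Of the changes, 39 of 100 of log2 size 1 and 84 of 100 of log2 size 2 were called, with 10 unchanged genes. These shares may not hold for the real libraries, where 2258 genes were called.

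The comparison and its gene lists were chosen with earlier results of these data known. Named genes were, per direction, the 2 called genes of largest log2 fold change whose libraries did not overlap and whose higher group averaged 100 CPM or more. The 41 lists planned by gene description could not be built. limma 3.58.1 (voom) and DESeq2 1.42.0 were alternatives, beside other scalings, filters, rounding, thresholds, a replicate block and leaving out libraries.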

Additional observations from a re-analysis of the deposited data

Results flagged for a closer look

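For 7 of the named genes the difference between OX and WT was itself different with and without aluminium, by edgeR's interaction test adjusted over all genes. Among all 37170 tested genes, this test called 605 (1.63%). Every named gene was picked at least in part by values with aluminium, which enter this test, so these calls are no separate support. The line effect was larger in the aluminium libraries for Glyma.11G212300 (adjusted p = 5.36e-06), Glyma.02G256800 (adjusted p = 0.000199), Glyma.10G242300 (adjusted p = 0.00183) and, towards lower values in OX, Glyma.16G180700 (adjusted p = 0.00261). It was smaller with aluminium for Glyma.15G264300 (adjusted p = 0.00352). It changed sign for Glyma.01G190600 (adjusted p = 0.000786) and Glyma.17G018100 (adjusted p = 0.00311), which were picked out for that. With 3 libraries a group, single libraries were not screened for values far from the others.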

How the results depend on the processing

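The count of 2258 genes stayed within 1.5 times under other scalings, no filter on low counts, rounding down, limma-voom, the DESeq2 Wald test (3149) and the 6 aluminium libraries alone (3360). It became 1391 among whole-valued genes only, 1141 at an adjusted p under 0.01 and 248 with at least 100 CPM, and ran from 1391 to 2746 when 1 of the 12 libraries was left out. DESeq2 called 2253 of the same 2258 genes in the same direction and limma-voom 2196. The share higher in OX_Al, 68.5%, was 70.4% with RLE size factors, 64.9% with library totals only, 72.5% with no filter, 66.2% with DESeq2, 75.2% at an adjusted p under 0.01, 73% at a log2 fold change of at least 1 and 63.3% to 75.9% with a library left out. The 423 genes also called in CK became 738 with DESeq2, 255 among whole-valued genes, 176 at 0.01 and 253 to 500 with a library left out, and the 605 of the difference became 1491, 392, 147 and 272 to 751 under the same changes. With the replicate block, 2819 genes were called (64.2% higher) and 2835 in the 6 aluminium libraries alone (70.9% higher). With that block in the fit of all 12 libraries, the difference was called for 728 genes. The replicate numbers were not taken to pair the libraries: deviations of same-numbered OX_Al and WT_Al libraries correlated at 0.033, -0.13 and -0.0032, and each OX_Al library matched a WT_Al library of another number best. OX_CK and WT_CK libraries were not checked in this way, so pairing over all 12 libraries was not tested. The leave-one-out values of single genes without aluminium, and the genes called without aluminium read with it, were chosen after seeing the data. Of the named genes called in Al, all but Glyma.17G018100 kept direction and call in every alternative that tested them. For every named gene the log2 fold change of OX_Al over WT_Al kept its sign in all alternatives that tested it. Without aluminium the log2 fold change of Glyma.16G180700, 0.10, became -0.52 without OX_CK replicate 2 and -0.23 without WT_CK replicate 2. Glyma.17G018100 also lost its call with RLE size factors (0.0628), no filter (0.0657) and whole-valued genes only (0.0523). The causes were not tested. At the depth of these libraries, genes of at most 1 CPM had a median SE of 0.59 on the log2 scale, against 0.16 between 30 and 100 CPM, so that only large differences could be called there.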
